A study of Mus musculus with 12 samples.

Results

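The genes described here are the Dlx, Gsx and Sp factors of the ventral forebrain, with Six3 and the noncoding transcript Dlx6os1, measured by RNA sequencing in the embryonic mouse cortex. They were taken by name, with earlier results of these data known: Dlx1, Dlx2, Dlx5, Dlx6, Dlx6os1, Gsx1, Gsx2, Sp8, Sp9 and Six3. Those 10 names matched 11 of the 48709 gene rows, because Dlx6os1 has 2 identifiers, and 10 of the 11 rows passed the filter on low counts that left 16511 genes tested. The libraries came from the cortex of C57BL/6J embryos at E15.5, 4 each from a BAF155 conditional knockout (cKO), from control and from libraries labelled Pax6 cKO, below called the Pax6-labelled libraries. Smarcc1 encodes BAF155, part of the core of the BAF complex, a chromatin remodeller, and Pax6 encodes a transcription factor of cortical radial glia. The labels give no Cre driver, no allele and no age or genotype for the control beyond its name and embryonic day, and they leave it unsaid whether each library is a separate embryo. P-values therefore measure the spread between libraries, and part of that spread may be technical.

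The ventral telencephalon, or ganglionic eminences, makes the GABAergic neurons of the forebrain, whereas the dorsal part, the pallium, makes glutamatergic neurons of the cortex. Gsx1 and Gsx2 are homeodomain factors that pattern its progenitors and act upstream of the Dlx genes, which lie in the genome as facing pairs, Dlx1 with Dlx2 and Dlx5 with Dlx6, and drive GABAergic differentiation and migration. Dlx6os1, also called Evf2, is a long noncoding transcript from the Dlx5-Dlx6 locus. Sp8 and Sp9 are zinc finger factors of olfactory bulb, cortical and striatal interneuron precursors, and Six3 is a homeodomain factor of the anterior forebrain and eye that is also used in the striatal lineage. Migrating interneurons from the ganglionic eminences are present in the embryonic cortex, so some level of these genes is a normal part of this tissue.

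On mm10 the facing genes Dlx1 (chr2:71528113-71533981, plus strand) and Dlx2 (chr2:71543408-71546754, minus strand) are 9.426 kb apart, and Sp9 (chr2:73271925-73284706, plus strand) lies 1.725 Mb beyond Dlx2. Dlx6 (chr6:6863334-6868568, plus strand) and Dlx5 (chr6:6877805-6882085, minus strand) are 9.236 kb apart, and the antisense gene Dlx6os1 (chr6:6820189-6871592, minus strand) spans Dlx6 without sharing an exon base with it. Gsx2 (chr5:75075601-75077893) and Gsx1 (chr5:147188696-147190947) are both on the plus strand of chromosome 5, 72.1 Mb apart. Sp8 is at chr12:118846329-118852576 and Six3 at chr17:85613608-85629302, both on the plus strand.

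Stretches of 250 bases before the RefSeq start (GRCm38.p6, which is mm10) are shown for Dlx6os1, which had the largest difference from control among the members, and for Dlx2, Sp9 and Gsx2, 3 factors from separate loci. They are written 5′ to 3′ on the strand of the gene, with capitals on the homeodomain core TAATTA in Dlx6os1 and on the GC box GGGCGG, or its reverse complement CCGCCC, in the others. RefSeq lists 2 starts for Dlx6os1. The first stretch, chr6:6869534-6869783 on the minus strand, lies within a GENCODE exon of this noncoding gene, and the second is chr6:6861684-6861933 on the minus strand.
Dlx6os1 first start: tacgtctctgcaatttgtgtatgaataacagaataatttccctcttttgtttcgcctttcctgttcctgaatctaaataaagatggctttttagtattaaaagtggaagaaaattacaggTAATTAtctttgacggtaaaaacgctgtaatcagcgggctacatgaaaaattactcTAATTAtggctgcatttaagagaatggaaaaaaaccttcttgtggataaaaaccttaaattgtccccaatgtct
Dlx6os1 second start: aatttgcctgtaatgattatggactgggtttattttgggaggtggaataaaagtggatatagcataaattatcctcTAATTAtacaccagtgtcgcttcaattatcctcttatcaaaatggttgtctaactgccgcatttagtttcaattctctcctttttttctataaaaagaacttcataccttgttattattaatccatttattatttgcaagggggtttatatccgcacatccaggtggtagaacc
Dlx2 (chr2:71546755-71547004, minus strand): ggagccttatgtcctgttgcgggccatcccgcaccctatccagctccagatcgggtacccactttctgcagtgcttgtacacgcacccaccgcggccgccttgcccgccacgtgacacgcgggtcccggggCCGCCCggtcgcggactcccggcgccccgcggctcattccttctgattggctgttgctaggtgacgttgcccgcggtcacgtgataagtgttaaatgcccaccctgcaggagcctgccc
Sp9 (chr2:73271676-73271925, plus strand): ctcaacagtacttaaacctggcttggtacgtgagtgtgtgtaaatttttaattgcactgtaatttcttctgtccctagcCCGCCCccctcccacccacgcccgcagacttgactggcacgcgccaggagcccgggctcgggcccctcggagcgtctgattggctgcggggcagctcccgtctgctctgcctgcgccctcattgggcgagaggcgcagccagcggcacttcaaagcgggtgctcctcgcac
Gsx2 (chr5:75075351-75075600, plus strand): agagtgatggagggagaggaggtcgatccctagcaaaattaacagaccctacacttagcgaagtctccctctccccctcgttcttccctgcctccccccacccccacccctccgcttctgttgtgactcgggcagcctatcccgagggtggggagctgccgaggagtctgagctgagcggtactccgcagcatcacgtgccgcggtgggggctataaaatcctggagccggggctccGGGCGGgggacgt
The contrast between the stretches is in base content: G and C made up 33.2% and 34.0% of the Dlx6os1 stretches, and 66.4%, 62.4% and 63.6% of those of Dlx2, Sp9 and Gsx2. TAATTA was at bases −130 and −74 before the first Dlx6os1 start and at −174 before the second, and GGGCGG was at −119 in Dlx2, −171 in Sp9 and −13 in Gsx2, each given by the first base of the match. In windows from 250 bases before to 50 after the start, searched on both strands, TAATTA was in 3 of the 11 member windows, both of Dlx6os1 and 1 of Sp8, and in 5.29% of all 32851 windows. GGGCGG was in 5 of 11 and in 35.7% of all, and the E-box CAGCTG in 1 of 11 and in 16.3% of all. Windows were found for 8 members, and a match of letters is not a binding site.

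Facts of the whole series that touch these results are few. Libraries held 15.16 to 32.05 M counted reads, with 1.21% to 3.27% from mitochondrial genes. Smarcc1 was lower in the BAF155 cKO than in control by a log2 fold change of −1.25 (adjusted p = 1.64e-05, SE 0.13), and it was lower in the Pax6-labelled libraries too, by −0.71 (adjusted p = 0.00128, SE 0.13). Pax6 counts went against the label, at 389 ± 8.74 CPM (counts per M reads, mean ± SD, n = 4) in the Pax6-labelled libraries against 110.2 ± 19.1 in control (log2 fold change 1.82, SE 0.12, adjusted p = 9.46e-08). They were also higher in the BAF155 cKO, at 314 ± 40.3 CPM (log2 fold change 1.51, SE 0.12, adjusted p = 9.98e-07), and the counts do not show which exons those reads came from. Every direction given below for that group rests on its label. All controls were run in lane 8, which held no other group, so lane and group cannot be told apart in any comparison with control. By Xist, control replicates 1 and 2 were nearer to the Pax6-labelled libraries and replicates 3 and 4 to the BAF155 cKO. The match to the BAF155 cKO was loose. Each of its libraries had more Xist than any control (log2 fold change 2.37, 95% interval −0.43 to 5.17, not called). Results are also given against the controls nearer by Xist alone. That split of the controls was not particular to Xist. Of all tested genes, 30.3% were higher in control replicates 3 and 4 than in 1 and 2, without overlap, and 28.8% were lower. A comparison with the controls nearer by Xist therefore also picks 1 side of this wider difference.

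In the BAF155 cKO, 6 of the 10 tested members were higher than in control and none was lower: Dlx1, Dlx5, Dlx6, Dlx6os1, Gsx2 and Sp9. Of all genes tested, 13.6% were called, 6.04% as higher and 7.56% as lower, by edgeR's quasi-likelihood test at a Benjamini-Hochberg adjusted p under 0.05. In the Pax6-labelled libraries, 8 of 10 were higher and none lower, the same 6 with Dlx2 and Sp8, where 35.5% of all genes were called, 16.6% as higher and 18.9% as lower. The median log2 fold change of the 10 members was 0.85 in the BAF155 cKO and 1.16 in the Pax6-labelled libraries, against 0.01 and 0.02 over all tested genes. At an unadjusted p under 0.05, no member was lower in the BAF155 cKO and 1, Six3, was lower in the Pax6-labelled libraries. Both comparisons use the same 4 controls, so the values are given side by side and are not independent. Read counts of whole tissue cannot tell more cells of a type from more RNA per cell.

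**Figure D1:**
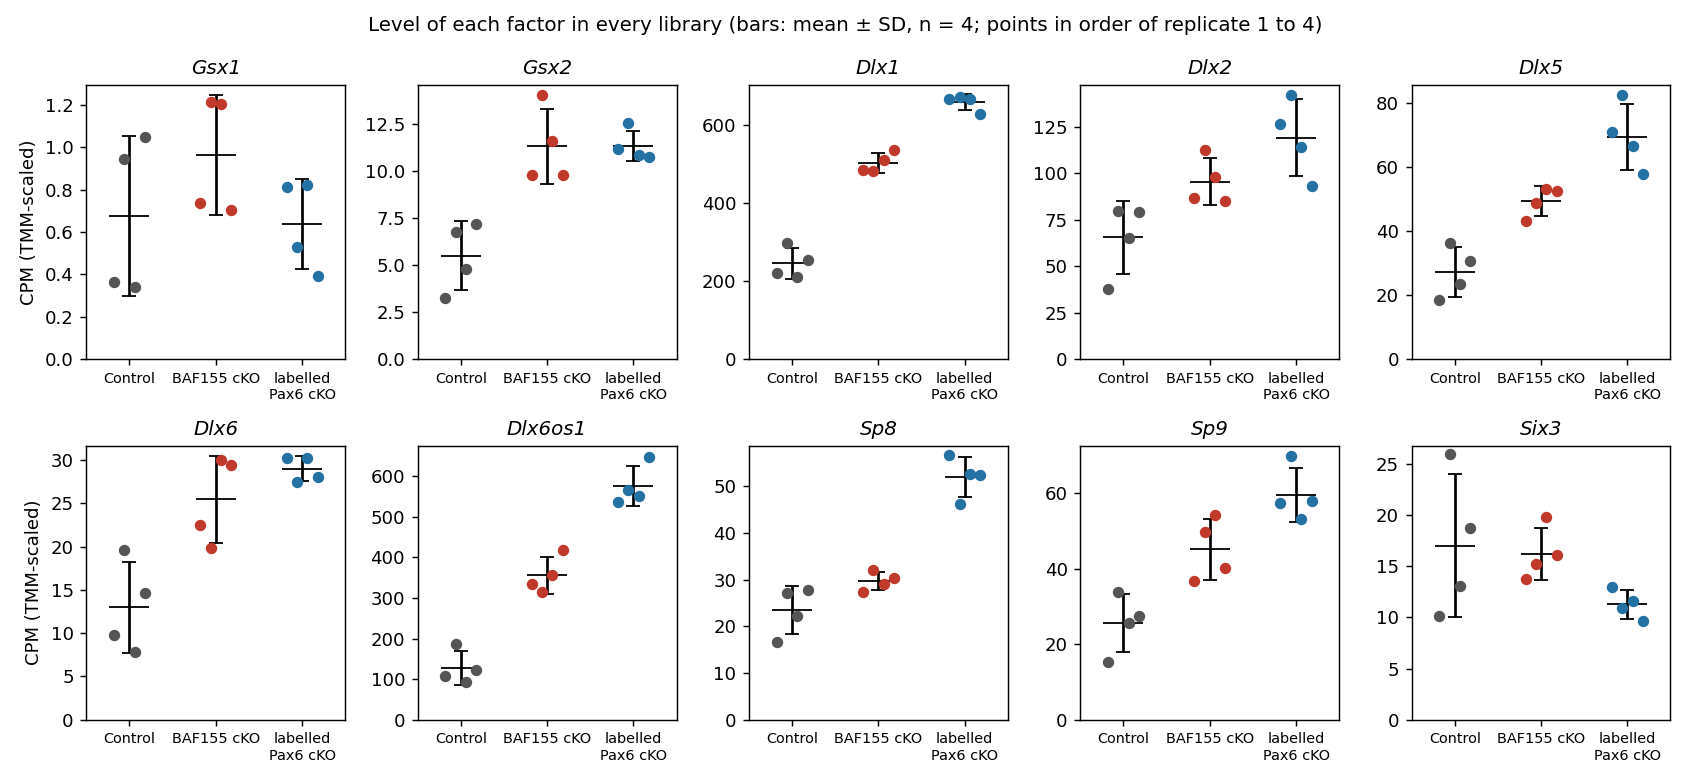
Level of each of the 10 tested members in every library, in CPM on a linear axis that starts at 0. Points are libraries, in the order of replicates 1 to 4, and bars show the mean ± SD of 4. For Dlx1, Dlx2, Dlx5, Dlx6, Dlx6os1, Gsx2 and Sp9 all points of both cKO groups lie above all 4 controls. For Gsx1 the 3 groups overlap.

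Gsx2, the patterning factor at the head of this group, was measured at 3.24, 6.77, 4.79 and 7.21 CPM in control replicates 1 to 4. It stood at 9.82, 14.1, 11.6 and 9.83 CPM in the BAF155 cKO and at 11.2, 12.6, 10.9 and 10.8 CPM in the Pax6-labelled libraries. Every cKO library lay above every control, and the 2 cKO groups overlapped. The log2 fold change was 1.06 in each (adjusted p = 0.00328 and 0.00156, SE 0.20 in each), about 2.08-fold. The 2 cKO groups differed by 0.00, with a 95% interval of −0.38 to 0.38.

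Gsx1, its paralog, was low, with 7 to 34 reads per library. It was at 0.364, 0.947, 0.338 and 1.05 CPM in control, 0.738, 1.21, 1.21 and 0.702 CPM in the BAF155 cKO and 0.812, 0.528, 0.823 and 0.393 CPM in the Pax6-labelled libraries. The 3 groups overlapped. Its log2 fold change was 0.55 (95% interval −0.20 to 1.296, adjusted p = 0.318) in the BAF155 cKO and −0.02 (−0.79 to 0.75, adjusted p = 0.976) in the Pax6-labelled libraries. At this depth the first interval includes the value measured for Gsx2, and the second does not.

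Dlx1 had the highest level per kb of the members in each group. It was at 219.9, 298, 211 and 253 CPM in control, 483, 481, 510.1 and 535 CPM in the BAF155 cKO, and 667, 673, 666 and 627 CPM in the Pax6-labelled libraries. The 3 groups stood apart without overlap, control lowest and the Pax6-labelled libraries highest. The log2 fold change against control was 1.03 (adjusted p = 9.77e-06, SE 0.10), or 2.05-fold, in the BAF155 cKO and 1.42 (adjusted p = 2.29e-07, SE 0.10), or 2.68-fold, in the Pax6-labelled libraries.

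Dlx2, which faces Dlx1 and has overlapping roles with it, was called in the Pax6-labelled libraries alone. Its levels were 37.6, 79.9, 65.3 and 79.4 CPM in control, 86.6, 112, 98.2 and 85.2 CPM in the BAF155 cKO and 127, 142, 114 and 93.3 CPM in the Pax6-labelled libraries. Control replicate 1 was the lowest of all 12 libraries, and no cKO library was within the range of the controls. In the Pax6-labelled libraries the log2 fold change was 0.86 (adjusted p = 0.00401, SE 0.19). In the BAF155 cKO it was 0.55 (SE 0.19, 95% interval 0.17 to 0.93), which missed the threshold at adjusted p = 0.0693 and passed it with DESeq2 (0.042). The ratio of Dlx1 to Dlx2 within a library overlapped between control and each cKO group (exact two-sided permutation p = 0.114 in both, 0.183 adjusted over the 24 ratio comparisons described below), so a difference in response between them was not shown.

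Dlx5, a factor of maturing GABAergic cells, was at 18.4, 36.2, 23.3 and 30.5 CPM in control, 43.02, 48.8, 53.1 and 52.4 CPM in the BAF155 cKO and 70.9, 82.4, 66.5 and 57.7 CPM in the Pax6-labelled libraries. As with Dlx1, the groups followed each other without overlap. The log2 fold changes were 0.87 (adjusted p = 0.00371, SE 0.17) and 1.36 (adjusted p = 5.39e-05, SE 0.17). With BAF155 cKO replicates 1 and 2 alone, those of lane 1, the first had an adjusted p of 0.0597.

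Dlx6 was at 9.82, 19.7, 7.83 and 14.6 CPM in control, 22.5, 19.8, 30.0 and 29.4 CPM in the BAF155 cKO and 30.3, 27.5, 30.2 and 28.03 CPM in the Pax6-labelled libraries. BAF155 cKO replicate 2 was just above control replicate 2, and the other cKO libraries were well above it. Its log2 fold change was 0.97 (adjusted p = 0.0105, SE 0.22) in the BAF155 cKO and 1.16 (adjusted p = 0.00143, SE 0.22) in the Pax6-labelled libraries. The first was not called with the BAF155 cKO replicates of lane 1 alone (adjusted p = 0.144) or without a filter on low counts (0.0541).

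Dlx6os1, the noncoding transcript of that locus, had the largest rise of the members in both comparisons. Its antisense gene row (ENSMUSG00000090063) was at 108, 186, 93.4 and 122 CPM in control, 334, 314, 356 and 418 CPM in the BAF155 cKO and 537, 566, 551 and 647 CPM in the Pax6-labelled libraries. The groups did not overlap. The log2 fold change was 1.48 (adjusted p = 4.65e-05, SE 0.17), or 2.79-fold, in the BAF155 cKO and 2.18 (adjusted p = 6.17e-07, SE 0.17), or 4.52-fold, in the Pax6-labelled libraries. The second row (ENSMUSG00000098326), a misc_RNA of 146 bases, had no read in any control, which over 92.99 M scaled reads allows up to 0.0323 CPM, and had 1 read over the 4 BAF155 cKO libraries and 6 over the 4 Pax6-labelled libraries. It was not tested, and it shares 104 bases of exon with the antisense gene.

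Sp8, a marker of dorsal lateral ganglionic eminence and of caudal ganglionic eminence interneurons, was the member on which the 2 cKO groups differed most. It was at 16.6, 27.1, 22.3 and 27.7 CPM in control, 27.4, 32.1, 29.1 and 30.4 CPM in the BAF155 cKO and 56.7, 46.2, 52.8 and 52.4 CPM in the Pax6-labelled libraries. The BAF155 cKO overlapped control narrowly, and the Pax6-labelled libraries were far above both. The log2 fold change was 0.35 (SE 0.13, 95% interval 0.09 to 0.61, adjusted p = 0.0872) in the BAF155 cKO and 1.16 (adjusted p = 2.29e-05, SE 0.13) in the Pax6-labelled libraries.

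Sp9, its paralog in striatal and interneuron precursors, was at 15.24, 33.9, 25.7 and 27.5 CPM in control, 36.7, 49.7, 54.2 and 40.1 CPM in the BAF155 cKO and 57.4, 69.8, 53.1 and 57.9 CPM in the Pax6-labelled libraries. Both cKO groups were above control and overlapped each other. Its log2 fold changes were 0.82 (adjusted p = 0.0116, SE 0.19) and 1.22 (adjusted p = 0.000361, SE 0.19). The first was not called with the BAF155 cKO replicates of lane 1 alone (adjusted p = 0.0876) or without a filter on low counts (0.061).

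Six3 was the exception among the well-counted members. It was at 10.1, 25.95, 13.1 and 18.8 CPM in control, 13.8, 15.205, 19.8 and 16.1 CPM in the BAF155 cKO and 12.998, 10.9, 11.6 and 9.61 CPM in the Pax6-labelled libraries. Controls covered a wide range that took in the whole BAF155 cKO group and 3 of the 4 Pax6-labelled libraries. The log2 fold change was −0.07 (95% interval −0.50 to 0.37, adjusted p = 0.849) in the BAF155 cKO and −0.58 (95% interval −1.02 to −0.15, adjusted p = 0.0527) in the Pax6-labelled libraries. The second, just short of the threshold, passed it as lower without control replicate 1, without control replicate 3 or without BAF155 cKO replicate 3 (adjusted p 0.00471 to 0.049), and also with RLE size factors (0.0487) and DESeq2 (0.0246).

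**Figure D2:**
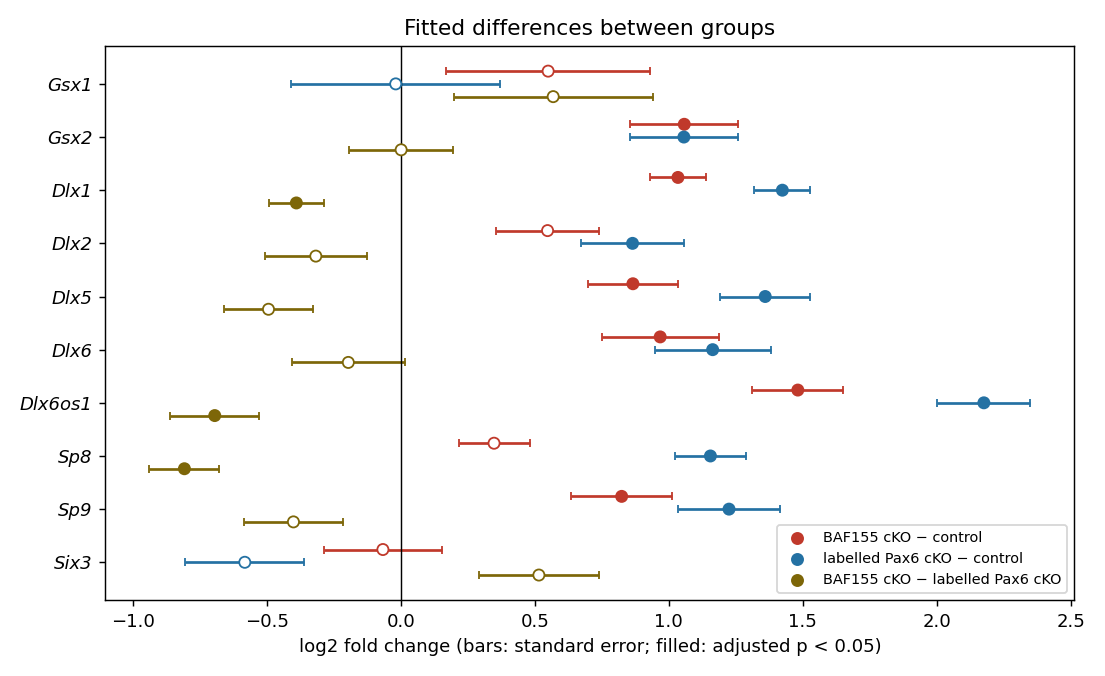
Log2 fold change of each tested member in the 3 comparisons, with the standard error as a bar. Filled points passed an adjusted p of 0.05 by edgeR's quasi-likelihood test. Most filled red and blue points lie near or above 1, Dlx6os1 reaches 2.18, and Six3 alone has blue and red points both below 0.

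Against the controls nearer by Xist, the members called were the same. With control replicates 3 and 4 alone, 6 of 10 were higher in the BAF155 cKO, where 25.1% of all genes were called, and Dlx1 had a log2 fold change of 1.10 and Dlx6os1 of 1.71. With control replicates 1 and 2 alone, 8 of 10 were higher in the Pax6-labelled libraries, where 7.98% of all genes were called, and Dlx1 had 1.35 and Dlx6os1 1.97. Without overlap between groups, 7 of 10 members were above control in the BAF155 cKO, which held for 6.47% of all genes, and 8 of 10 in the Pax6-labelled libraries, which held for 17.2%. The count of 6 in the BAF155 cKO was 3 with its lane 1 replicates alone, namely Dlx1, Dlx6os1 and Gsx2.

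Compared directly, the BAF155 cKO was lower than the Pax6-labelled libraries for 3 of 10 members and higher for none, where 4.31% of all genes were called, 2.01% as lower and 2.3% as higher. By the same edgeR test, 5 members were lower and 1, Six3, was higher at an unadjusted p under 0.05. Sp8 differed by a log2 fold change of −0.81 (adjusted p = 0.0029, SE 0.13), and all 4 BAF155 cKO libraries were below all 4 of the other group. Within lane 1, which held BAF155 cKO replicates 1 and 2 and all Pax6-labelled libraries, Sp8 had −0.80 (adjusted p = 0.028), and 2.74% of all genes were called. Dlx6os1 differed by −0.69 (adjusted p = 0.0297, SE 0.17) and Dlx1 by −0.39 (adjusted p = 0.0422, SE 0.10). Those 2 calls were fragile: Dlx6os1 lost its call without any 1 of 7 libraries (adjusted p 0.0527 to 0.0932) and Dlx1 without any 1 of 8 (0.0534 to 0.114), and neither was called within lane 1 (0.0624 and 0.085). The libraries whose removal ended the Dlx6os1 call were BAF155 cKO replicates 1, 2 and 3 and all 4 labelled Pax6 cKO, and control replicate 4 joined them for Dlx1.

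Dlx5 was lower in each BAF155 cKO library than in each Pax6-labelled library, but its log2 difference of −0.49 (95% interval −0.82 to −0.17) had an adjusted p of 0.0996. For Dlx2 the difference was −0.32 (−0.69 to 0.06), for Sp9 −0.40 (−0.76 to −0.04) and for Dlx6 −0.20 (−0.61 to 0.22), none of them called. Six3 went the other way, at 0.52 (0.08 to 0.95, adjusted p = 0.196), with all 4 BAF155 cKO libraries above the other 4, which held for 7.5% of all genes. In all, 4 of 10 members were below without overlap, against 7.83% of all genes.

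Per kb of exon, which allows levels of different genes to be set side by side, Dlx1 led in control with 45.5 ± 7.28 CPM per kb (mean ± SD, n = 4). Dlx6os1 followed with 24.6 ± 7.91 and Dlx2 with 22.9 ± 6.95, which do not differ beyond their spread, then Dlx5 with 11.98 ± 3.47. Dlx6 (5.46 ± 2.22), Sp8 (5.14 ± 1.13), Sp9 (5.07 ± 1.53), Gsx2 (3.30 ± 1.11) and Six3 (3.12 ± 1.28) came next. The range of mean ± SD of each of these overlapped that of the next, and Gsx1 was last with 0.381 ± 0.212. In the Pax6-labelled libraries the leading levels were Dlx1 at 122 ± 3.87 and Dlx6os1 at 111 ± 9.501 CPM per kb, then Dlx2 at 41.7 ± 7.26 and Dlx5 at 30.7 ± 4.55. In the BAF155 cKO these 4 stood at 93.1 ± 4.72, 68.7 ± 8.74, 33.5 ± 4.43 and 21.8 ± 2.04 CPM per kb. Dlx6os1, level with Dlx2 in control, was thus above it by more than their spread in both cKO groups.

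The members varied together among the 4 controls. All 10 tested members, Gsx1 and Six3 included, were higher in control replicates 2 and 4 than in replicates 1 and 3, an order that 10.9% of all tested genes had; this split was chosen after its values were seen. It crosses the split by Xist, which joins replicates 1 and 2. The summed level of the ventral progenitor list described below had the same order, with 190 and 209 CPM in control replicates 2 and 4 and 131 and 138 CPM in 1 and 3. The median coefficient of variation of the members was 31.2% in control, 14.5% in the BAF155 cKO and 10.3% in the Pax6-labelled libraries, against 12.8%, 14.2% and 8.63% over all tested genes.

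**Figure D3:**
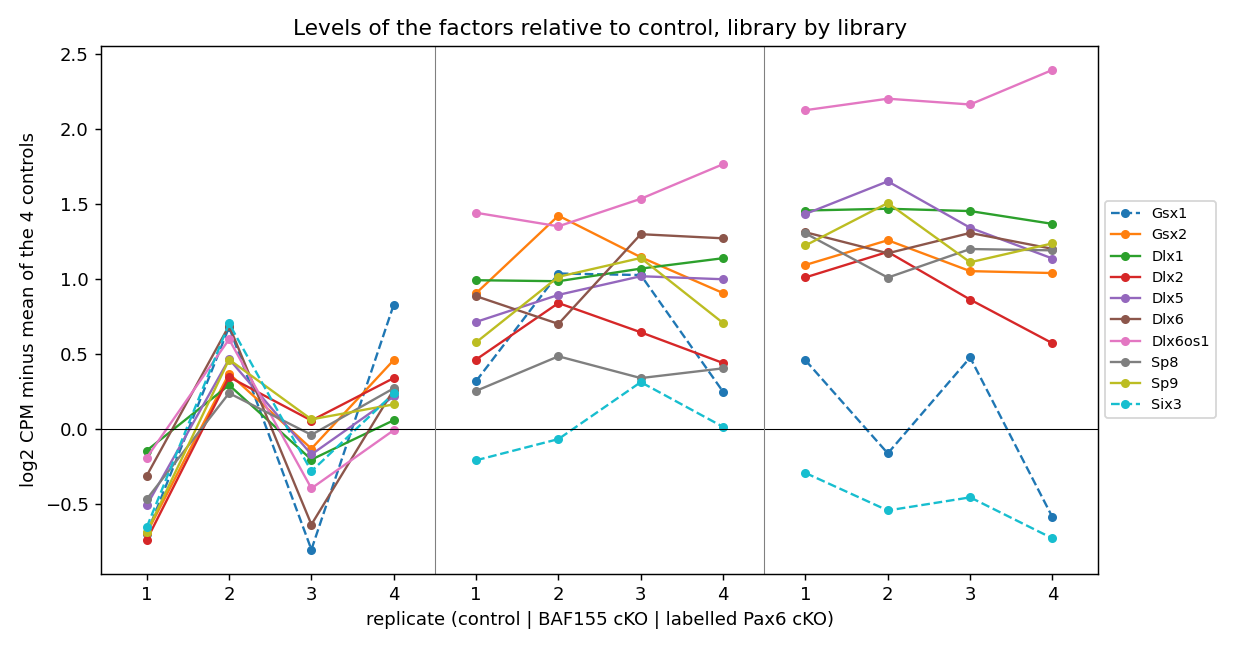
Log2 CPM of each member in each library, minus the mean of the 4 controls, with the libraries in 3 blocks of 4. The controls zigzag together, with replicates 2 and 4 above replicates 1 and 3 for all 10 members. Six3 and Gsx1, dashed, leave the others in the Pax6-labelled libraries.

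Within a library, the ratio of 2 members does not depend on the library's size, and variation that the members share falls out of it. Of 24 such comparisons, 8 ratios in 3 pairs of groups, none passed an exact two-sided permutation test after adjustment, since 4 against 4 libraries cannot give a p below 0.0286, which was 0.098 after adjustment; 7 had that smallest p unadjusted. Values are given for the ratios that reached that smallest p. The log2 ratio of Dlx6os1 to Dlx6 was 3.45, 3.24, 3.57 and 3.06 in control, 3.89, 3.98, 3.57 and 3.83 in the BAF155 cKO and 4.15, 4.36, 4.19 and 4.53 in the Pax6-labelled libraries, which were 0.98 above control without overlap. Six3 to Sp9 was −0.59, −0.38, −0.97 and −0.55 in control, −1.41, −1.71, −1.45 and −1.32 in the BAF155 cKO and −2.14, −2.67, −2.19 and −2.59 in the Pax6-labelled libraries. Six3, not called against control with all 12 libraries, was thus lower relative to Sp9 in every cKO library than in any control, by 0.85 and 1.78 on the log2 scale.

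Sp8 to Sp9 was 0.49 lower on the log2 scale in the BAF155 cKO than in control and 0.09 lower in the Pax6-labelled libraries (exact permutation p = 0.0286 and 0.657). Gsx2 to Dlx2 was 0.50 higher in the BAF155 cKO (exact permutation p = 0.0286), with the 4 libraries between −3.14 and −2.997 and the controls between −3.76 and −3.46. The ratios of the facing genes, Dlx1 to Dlx2 and Dlx5 to Dlx6, had overlapping groups. Dlx1 to Dlx2 was 2.55 in control replicate 1 and 1.67 to 1.90 in the other controls, with 2.10 to 2.65 in the BAF155 cKO and 2.24 to 2.75 in the Pax6-labelled libraries.

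**Figure D4:**
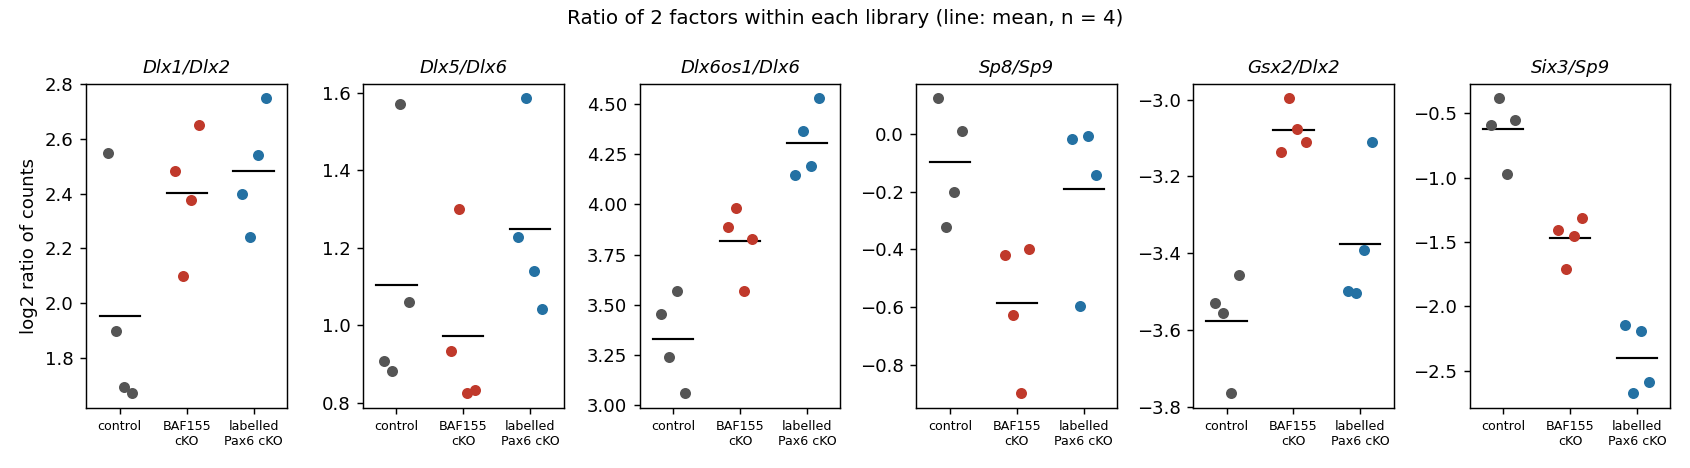
Log2 ratio of 2 members within each library, with a line at the mean of 4. Dlx6os1 to Dlx6 climbs and Six3 to Sp9 falls from control to the Pax6-labelled libraries, while Dlx1 to Dlx2 and Dlx5 to Dlx6 overlap between groups.

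The kit does not mark strand, so reads from exons that overlap on the other strand cannot be told apart. Dlx1 shares 335 bases, 6.21% of its exons, with the antisense gene Dlx1as. The count of Dlx1as rose from 18.6 ± 4.18 CPM in control to 43.6 ± 4.33 in the BAF155 cKO and 45.1 ± 1.78 in the Pax6-labelled libraries (log2 fold changes 1.23 and 1.28, SE 0.13 in each, adjusted p = 1.50e-05 and 6.22e-06). The shared bases are 20.6% of the Dlx1as exons, so that count may hold reads of Dlx1, and their part in it was not tested. Dlx6 shares 104 bases with Dlx6os2, at 0.272 CPM in control and 0.715 and 0.809 CPM in the cKO groups. Sp9 shares 270 bases with Cir1, which was not called in either comparison (log2 fold changes 0.11 and 0.19). Six3 shares 106 bases with Six3os1, not called either, and 168 with Gm28528, which had at most 8 reads in a library.

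The genes next to the members were taken by position. Among the 3 nearest tested protein-coding genes on each side of the 7 loci, 41 distinct genes, 8 were higher and 2 lower in the BAF155 cKO and 12 higher and 7 lower in the Pax6-labelled libraries, where 13.6% and 35.5% of all genes were called. Their median log2 fold change was 0.04 and 0.09, against 0.85 and 1.16 for the members. The 10 called in the BAF155 cKO became 6 without its replicate 4 and 4 with its lane 1 replicates alone. The split between directions was not stable there: it was 8 higher and 7 lower without BAF155 cKO replicate 2, 6 and 6 without control replicate 1, 6 and 5 without control replicate 2, 5 and 2 without control replicate 3 or 4, and 7 and 7 against control replicates 3 and 4 alone. The 19 in the Pax6-labelled libraries became 8 against control replicates 1 and 2 alone, and the 7 lower became 4 without control replicate 4. Metap1d, a mitochondrial methionine aminopeptidase gene 2.92 kb from Dlx1, was higher by 0.92 (adjusted p = 0.0106, SE 0.21) in the BAF155 cKO and by 1.04 (adjusted p = 0.00219, SE 0.21) in the Pax6-labelled libraries. Its first call ended without BAF155 cKO replicate 4 (adjusted p = 0.05) and its second against control replicates 1 and 2 alone. Hat1, a histone acetyltransferase gene 86.5 kb from Dlx1, was higher by 0.39 and 0.55, and Chic2, 30.8 kb from Gsx2, by 0.42 and 0.59 (adjusted p 0.014 and 0.000679, and 0.00263 and 9.73e-05).

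On the other side of Gsx2, Pdgfra, the receptor that marks oligodendrocyte precursors, was higher by 0.62 (adjusted p = 0.011, SE 0.14) in the BAF155 cKO and was not called in the Pax6-labelled libraries. Dync1i1, a dynein chain gene 835 kb from the Dlx5-Dlx6 locus, was lower by a log2 fold change of −1.09 (adjusted p = 2.36e-05, SE 0.12) in the BAF155 cKO. Lnx2, a ubiquitin ligase gene 112 kb from Gsx1, was lower in both, with log2 fold changes of −0.96 and −0.93 (adjusted p = 0.0079 and 0.00399). Hat1, Pdgfra and Lnx2 lost their BAF155 cKO calls with its lane 1 replicates alone, and Lnx2 its other call against control replicates 1 and 2 alone. Next to Sp8, Dnah11, an axonemal dynein gene, was higher by 1.06 (adjusted p = 0.00209, SE 0.21) in the Pax6-labelled libraries, and 642 of its exon bases are shared with its neighbour Cdca7l, which was higher by 0.48 (adjusted p = 0.00961).

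**Figure D5:**
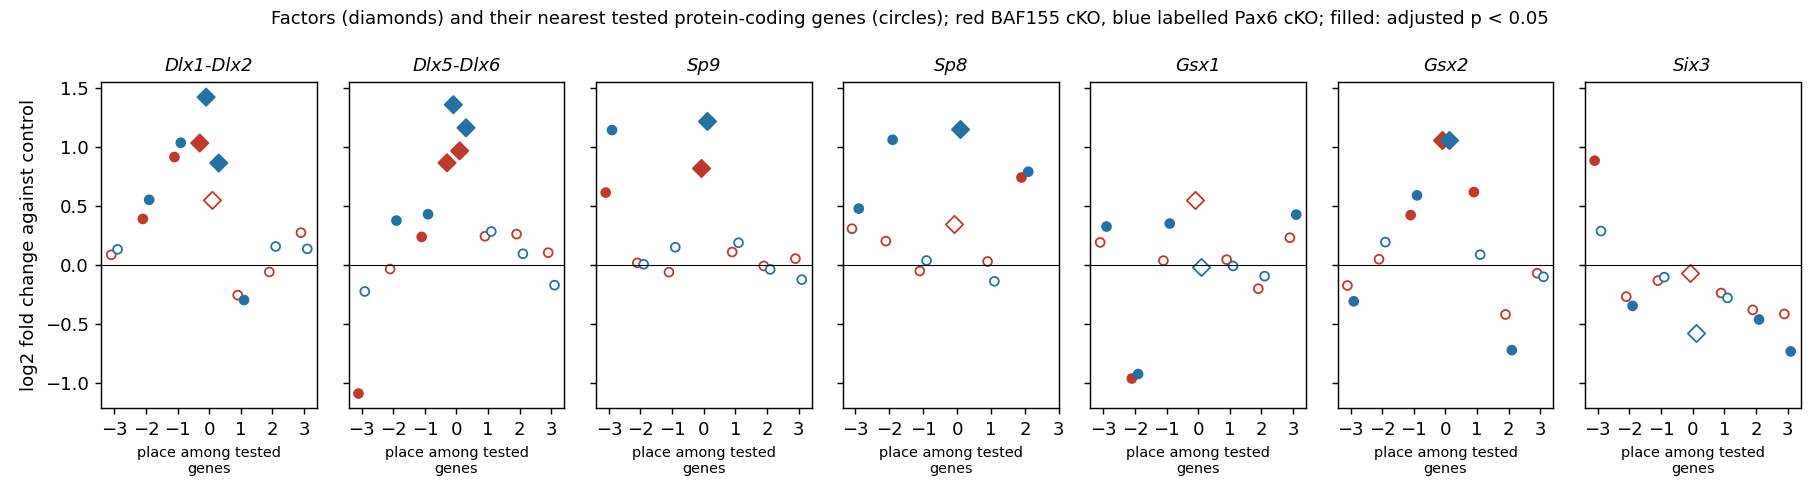
Log2 fold change against control for the members (diamonds) and their nearest tested protein-coding genes (circles), by place along the chromosome at each of 7 loci. Filled points passed an adjusted p of 0.05. At the Dlx5-Dlx6, Sp9 and Gsx2 loci the diamonds stand above their immediate neighbours, and at Dlx1-Dlx2 the first gene on the left, Metap1d, lies beside them.

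Other genes of the pathway were taken from lists that were also chosen with earlier results of these data known. Among 25 GABAergic and Dlx-linked genes, 13 were higher and 4 lower in the BAF155 cKO and 12 higher and 4 lower in the Pax6-labelled libraries, with a median log2 fold change of 0.35 and 0.41. Over all genes, 13.6% and 35.5% were called, 6.04% and 16.6% as higher. Of the list, 8 and 9 genes were not called. Its summed level was 2008 to 2301 CPM in control and 2191 to 2817 CPM in the BAF155 cKO, so these overlapped. In the Pax6-labelled libraries the sum was 2560 to 2654 CPM, above every control. Erbb4, the neuregulin receptor of migrating interneurons, rose by 1.05 and 1.09 (adjusted p = 4.15e-05 and 1.50e-05, SE 0.12 in each), and Nrxn3, a presynaptic adhesion gene, by 0.98 and 1.15 (adjusted p = 9.63e-05 and 1.19e-05, SE 0.12 in each). Gad1, the GABA-synthesising enzyme, named here after its values were seen, was at 61.3 to 104 CPM in control, 141 to 229 CPM in the BAF155 cKO and 175 to 218 CPM in the Pax6-labelled libraries. Calb2, the calretinin gene, rose by 0.86 (adjusted p = 9.43e-07, SE 0.07) in the Pax6-labelled libraries and by 0.27 in the BAF155 cKO, where it lost its call without BAF155 cKO replicate 3 or 4 or control replicate 2 or 3. Dlgap1, a postsynaptic scaffold gene, fell, with log2 fold changes of −0.61 and −0.55 (adjusted p = 0.000149 and 0.000194, SE 0.08 in each). The 17 calls of this list in the BAF155 cKO became 9 without BAF155 cKO replicate 4 or control replicate 3, and the 16 in the Pax6-labelled libraries became 8 against control replicates 1 and 2 alone.

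Among 9 tested progenitor factors of the ventral telencephalon, 2 were higher and none lower in the BAF155 cKO, where 13.6% of all genes were called. In the Pax6-labelled libraries, where 35.5% of all genes were called, 4 of these factors were higher and 1 lower. In the BAF155 cKO none was lower at an unadjusted p under 0.05 either. Their median log2 fold change was −0.05 and 0.21. Olig2, a factor of ventral progenitors and oligodendrocyte precursors, rose by 0.94 in the BAF155 cKO (adjusted p = 0.00174, SE 0.17) and by 0.72 in the Pax6-labelled libraries (adjusted p = 0.00463, SE 0.16). Vax1 rose by 0.65 and the Notch ligand Dll1 fell, at −0.44, in the Pax6-labelled libraries (adjusted p = 0.0102 and 0.00673). The summed level of this list was 131 to 209 CPM in control, 183 to 208 CPM in the BAF155 cKO and 166 to 192 CPM in the Pax6-labelled libraries, so its groups overlapped. The 5 calls in the Pax6-labelled libraries became 3 without control replicate 1 or 3 or Pax6-labelled replicate 2, and the 2 in the BAF155 cKO became 1 with its lane 3 replicates alone. Against control replicates 1 and 2 alone, where 7.98% of all genes were called, 2 were higher and 0 lower in the Pax6-labelled libraries.

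Of 18 tested striatal genes, 1 was higher and 1 lower in the BAF155 cKO and 1 higher and 2 lower in the Pax6-labelled libraries, with medians of 0.18 and −0.18. Over all genes 13.6% and 35.5% were called, so the count in the BAF155 cKO was near that share. Ppp1r1b, the DARPP-32 gene of striatal projection neurons, fell in both, with log2 fold changes of −0.89 (adjusted p = 0.00119, SE 0.15) and −0.97 (adjusted p = 0.00029, SE 0.15). The list's 2 calls in the BAF155 cKO ranged from 1 to 4 and its 3 in the Pax6-labelled libraries reached 5 with 1 library left out, 4 and 5 without control replicate 2. Their summed level was 876 to 1587 CPM in control, 876 to 1525 CPM in the BAF155 cKO and 887 to 1138 CPM in the Pax6-labelled libraries, and the highest control, replicate 2, was also the highest for Six3.

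Of 8 genes of the dorsal lateral ganglionic eminence and olfactory bulb, the territory of Sp8, 2 were higher and none lower in the BAF155 cKO, where 13.6% of all genes were called. In the Pax6-labelled libraries, where 35.5% of all genes were called, 3 of the 8 were higher and 2 lower. The medians were −0.27 in the BAF155 cKO and 0.25 in the Pax6-labelled libraries. At an unadjusted p under 0.05, 2 were lower in the BAF155 cKO. The list's summed level was 599 to 924 CPM in control, 653 to 926 CPM in the BAF155 cKO and 801 to 907 CPM in the Pax6-labelled libraries. Its groups thus overlapped. The genes called as lower are not named here. Tshz1 rose by 0.68 and 0.79 (adjusted p = 0.00516 and 0.000904, SE 0.14 in each). Cdca7, 785 kb from Sp9 and also counted among the neighbours above, rose by 0.61 and 1.14 (adjusted p = 0.0059 and 1.90e-05, SE 0.13 in each). Etv1, like Sp8, differed between the cKO groups. It was at 15.7, 26.7, 21.5 and 24.6 CPM in control, 24.6, 24.6, 26.3 and 26.5 CPM in the BAF155 cKO and 47.0, 43.5, 46.02 and 47.3 CPM in the Pax6-labelled libraries, and the direct difference was −0.85 (adjusted p = 0.00155, SE 0.12). The list's calls became 5 in the BAF155 cKO without control replicate 1 and 3 in the Pax6-labelled libraries without any 1 of control replicates 2 to 4 or any 1 of their own 4.

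Pallial factors, the dorsal counterpart of the members, were lower: 13 of 16 in the BAF155 cKO and 15 of 16 in the Pax6-labelled libraries, and none higher, also at an unadjusted p under 0.05 by edgeR's quasi-likelihood test, with medians of −0.85 and −1.21. Over all genes, 7.56% and 18.9% were called as lower. Neurog2, the proneural factor of cortical progenitors, fell with log2 fold changes of −1.94 (adjusted p = 1.29e-05, SE 0.20) and −3.04 (adjusted p = 1.08e-07, SE 0.21), and Eomes, the factor of intermediate progenitors, with −1.95 (adjusted p = 3.80e-06, SE 0.18) and −2.23 (adjusted p = 6.31e-07, SE 0.18). The summed level of the list was 3105 to 4298 CPM in control, 1689 to 2586 CPM in the BAF155 cKO and 1840 to 2004 CPM in the Pax6-labelled libraries. The 13 called in the BAF155 cKO became 5 with its lane 1 replicates alone. The part of this fall in the members' values was not tested.

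Of 16 genes of hypothalamus, eye and prethalamus, where Six3 is also used, 7 passed the filter on low counts. In the BAF155 cKO, where 13.6% of all genes were called, 3 of them were higher and 1 lower. In the Pax6-labelled libraries, where 35.5% of all genes were called, 1 was higher and 1 lower. A gene near 0 in control passes the filter only through a group where it is high, so its call as higher is partly set by the filter. Sim1, a hypothalamic factor, was at 0.0992, 0.0474, 0 and 0.0478 CPM in control, 5 reads in all, and at 1.51 to 3.32 CPM in the BAF155 cKO and 0.213 to 0.388 CPM in the Pax6-labelled libraries. Of 9 tested genes from the same families as the members, 1 was higher in each comparison with control, Dlx1as, whose count may hold reads of Dlx1. In the Pax6-labelled libraries 3 of the 9 were lower, among them Sp2 with −0.64 (adjusted p = 0.00424, SE 0.14). Over all genes, 13.6% were called in the BAF155 cKO and 35.5% in the Pax6-labelled libraries, 18.9% as lower. The number of these 9 called was near that share in each comparison. The 3 lower became 1 without control replicate 3 and 0 against control replicates 1 and 2 alone, where 1 was lower at an unadjusted p under 0.05 by edgeR's quasi-likelihood test. Of 14 markers of blood, vessel, meningeal, choroid plexus and immune cells, 4 were higher and 1 lower in the BAF155 cKO, where 13.6% of all genes were called. In the Pax6-labelled libraries 5 were higher and none lower. That count was near the share of 35.5% called over all genes in either direction, of which 16.6% were higher. The summed level of the 14 markers was 299 to 380 CPM in control, 306 to 613 CPM in the BAF155 cKO and 412 to 760 CPM in the Pax6-labelled libraries. Its part in the members' values was not tested. The 5 calls in the BAF155 cKO became 3 without control replicate 2, 1 without control replicate 3 and 2 without control replicate 4, and the 5 in the Pax6-labelled libraries became 2 without control replicate 3 and 3 without control replicate 4. Against control replicates 1 and 2 alone, none of the 14 was called in the Pax6-labelled libraries by edgeR's quasi-likelihood test and 3 were higher at an unadjusted p under 0.05, while 8 members were called.

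The genes whose profile over the 12 libraries was nearest to the mean of Dlx1, Dlx2, Dlx5 and Dlx6 were found by the root mean square distance of centred log2 CPM among 14071 genes. They were Nrxn3 (0.15), Sntg1 (0.19), Helt (0.19), Pbx3 (0.20) and Dleu7 (0.20), a description without a test. Helt, a factor of GABAergic fate in the midbrain, had log2 fold changes of 1.06 and 1.57, and Sntg1, a syntrophin gene, 0.88 and 1.37. Near to Gsx2 were Rffl (0.24), Tshz1 (0.26), Olig2 (0.26) and Nrxn3 (0.28). On the same scale the members lay at 0.09 (Dlx5), 0.14 (Dlx1), 0.18 (Sp9), 0.20 (Dlx6), 0.22 (Gsx2), 0.24 (Dlx2) and 0.28 (Sp8) from the Dlx mean, which the Dlx genes are part of. Dlx6os1 at 0.44, Gsx1 at 0.65 and Six3 at 0.73 were the farthest.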

How the data were processed

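The authors deposited raw read counts per gene, whole numbers without normalization, in 1 file per library. The submitters' processing notes name mm10 as the build. Aligner and counting program: not given in the sources used here. Libraries were made with a TruSeq RNA v2 kit from RNeasy total RNA, per the labels' protocols. Of 48709 identifiers, 48349 matched GENCODE M21, used for symbols, coordinates and exon length.

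The analysis used edgeR 4.0.16 in R 4.3.3 (filterByExpr, TMM scaling, robust quasi-likelihood fit, 1 coefficient per group, all 12 libraries), adjusted by Benjamini-Hochberg over 16511 genes and called at an adjusted p under 0.05. Every adjusted p of a gene comes from that test, unless another setting, such as an alternative below, is named beside it. CPM is the count per M reads after TMM scaling of the library size, and the SE is the absolute log2 fold change over the square root of F. Ratios used counts plus 0.5. Groups and replicate numbers came from the titles, and lanes from the names of the count files. On data simulated for the BAF155 cKO comparison (16351 genes), 82.8% of genes changed by 1 on the log2 scale were called. Alternatives were RLE factors, DESeq2 1.42.0, limma-voom (limma 3.58.1), other filters, a fold threshold of 1.2 and only the 8 libraries compared. Others were a replicate block, single lanes, the controls nearer by Xist and each library left out. Intervals cover the spread between libraries.

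Members, lists and alternatives were chosen with earlier results of these data known. Named genes were the members, the called locus neighbours, the 5 nearest profiles and, per list and comparison, the 2 called genes of smallest adjusted p in each direction; not all are printed, and the values of 1 gene are not reported here. Protein sequences were not used here.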

Additional observations from a re-analysis of the deposited data

Results flagged for a closer look

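In the libraries labelled Pax6 cKO, Dlx1 in replicate 4 (627 CPM) lay apart below the other 3 libraries, which were between 666 and 673 CPM. This was the only one of 30 groups of 4 libraries among the 10 tested members in which a single library stood apart by Dixon's criterion, and chance alone gives about 1 in 20. It remained above every control and every BAF155 cKO library.

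For 3 of 10 members the 2 cKO groups differed in a direct test, in which 4.31% of all genes were called. The log2 fold change of the BAF155 cKO against the libraries labelled Pax6 cKO was −0.81 for Sp8, −0.69 for Dlx6os1 and −0.39 for Dlx1, and in each case all 4 BAF155 cKO libraries were below the other 4. The Sp8 call held with each library left out and within lane 1. The Dlx6os1 call ended without any 1 of 7 libraries, the Dlx1 call without any 1 of 8, and neither was called within lane 1.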

How the results depend on the processing

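In the direct comparison of the 2 cKO groups, the 3 members called became 1 with a fold threshold of 1.2, 1 with the BAF155 cKO replicates of lane 1 alone, 1 with those of lane 3 alone, Sp8 each time, and 5 in a fit of only the 8 libraries compared. Leaving out each library in turn gave 1 to 4. In the BAF155 cKO against control, the 6 members called became 3 with the BAF155 cKO replicates of lane 1 alone and stayed at 6 in all 12 leave-one-out fits. In the libraries labelled Pax6 cKO, the 8 called became 8 or 9 in those fits. No ratio passed the adjusted threshold with a pseudocount of 1 or 0.1, and ratios were not tested with a library left out. Among log2 fold changes of single members under all alternatives, 620 kept their side of the threshold, 27 lost the call and 10 gained one. None that was called in either fit changed direction. A change of sign between uncalled values was not counted. The replicate numbers did not pair the libraries: correlations of same-numbered libraries ran from −0.19 to 0.35, with 4 of 12 over 0.1. With the replicate number as a block, 7, 8 and 2 members were called in the 3 comparisons, with Dlx2 gained in the BAF155 cKO (adjusted p = 0.0479, edgeR's quasi-likelihood test) and Dlx1 lost in the direct comparison (0.0667). The count of called genes in the lists and among the neighbours, recomputed under settings added after seeing the data, moved by over 1.5 times in 129 of 594 cases. Depth limits Gsx1 alone among the tested members, with 7 to 34 reads per library.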
